A study of Mus musculus with 18 samples.

Results

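The inner retinal neurons receive, modify and forward the signal of the rods and cones, and 35 marker genes of these neurons are described here out of 78239 genes in the count table of the mouse retina. The genes were listed as accepted markers of a cell class by a rule that used no value of these data, but with earlier results of these data known. They comprise 12 markers of bipolar cells, 10 of amacrine cells, 4 of horizontal cells and 9 of retinal ganglion cells. The comparison asked whether the neurons downstream of the rods kept their marker RNA while the rods were made to express *nsHif1a*, a normoxia-stable form of the hypoxia-inducible factor HIF1A.

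Retinal mRNA was sequenced in 5 libraries from mice given AAV::*nsHif1a* and 5 from mice given the control vector AAV::eGFP. The control vector makes the green fluorescent protein in place of HIF1A. Both adeno-associated viruses carried a mouse opsin promoter that is active in rods, were given below the retina between postnatal days 29 and 32, and were examined at 3 weeks post injection (wpi). The vector reached only part of the retinal area, so each library mixed transduced and untransduced retina, and the control mice had the same injection and capsid. The labels give the mice as C57BL/6J, whereas the methods of the study name 129S6 wild-type mice. A second experiment compared 661W cells, a photoreceptor-like line derived from a mouse retinoblastoma, at 20 h after transfection with a plasmid for *nsHif1a* or for eGFP under the CMV promoter, with 4 libraries per group.

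Rods and cones release glutamate onto bipolar and horizontal cells in the outer plexiform layer. ON bipolar cells read it through a metabotropic receptor that keeps a cation channel shut in the dark, and bipolar cells in turn drive amacrine cells and ganglion cells, whose axons form the optic nerve. Horizontal and amacrine cells shape this path by lateral inhibition with GABA or glycine. In whole-retina RNA each class is a small part of the sample, and fewer cells of a class and less RNA per cell cannot be told apart.

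The deposited values are whole-number counts per gene, 12898220 to 16167522 per retinal library. Levels are given in CPM, the share of a library's counts that fall on a gene, brought to a common total and scaled between libraries by the TMM method, and 3 counts correspond to 0.186 to 0.233 CPM, a limit that covers counting error only. Differences are log2 fold changes (log2FC) of AAV::*nsHif1a* over AAV::eGFP from limma, fitted over all 18859 genes with sufficient counts, with the Benjamini-Hochberg (BH) adjustment over all of them. A gene was called at an adjusted *p* under 0.05 together with an absolute log2FC above 0.5.

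Several properties of the libraries bear on every result. A list of 8 HIF targets was chosen with earlier results of these data known. All 8 were called higher, where 1.08% of all genes tested were. Their groups did not overlap, where this held for 5.94% of all genes in either direction. Among them were *Adm* (0.313 ± 0.134 against 12.8 ± 3.49 CPM, SD, n = 5), *Egln3* (log2FC 2.38) and *Bnip3* (log2FC 0.98), whereas *Hif1a* RNA itself had a log2FC of 0.05 (95% limits -0.04 to 0.14). All 5 AAV::*nsHif1a* libraries and AAV::eGFP libraries 1 and 2 held *Xist* counts, while AAV::eGFP libraries 3, 4 and 5 held 1 to 3 *Xist* counts and 2701 to 3509 counts of *Ddx3y*, *Eif2s3y*, *Kdm5d* and *Uty*, so the sex of the mice was not balanced between the groups. Summed over 14 genes of the lens, the level was 2144 to 6509 CPM with AAV::eGFP and 1938 to 26608 CPM with AAV::*nsHif1a*, and *Lim2*, which a read-through gene overlaps on the same strand, was listed at 0 in every library. The corresponding sums were 60.1 to 263 against 93.6 to 269 CPM for 10 microglial genes, where 263 was that of AAV::eGFP library 2. All 10 had a higher log2FC (median 1.10), 5 at an unadjusted *p* under 0.05 in limma (21.7% of all genes) and 0 at an adjusted *p* under 0.05. For 10 genes of the retinal pigment epithelium the sums were 106 to 819 against 85.1 to 995 CPM. The part of microglia and pigment epithelium in the results was not tested. The lens level was used as a covariate in an alternative fit, which is given with the other fits at the end.

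All 35 markers were detected in all 10 libraries and passed the filter on low counts, and 32 of them had 100 or more counts in every library. The other 3, *Th*, *Lhx1* and *Onecut1*, had at least 18. Per kilobase of annotated exon, the highest level with AAV::eGFP was that of *Calb2* (153 CPM per kb), followed by *Nefl* (122), *Pcp2* (67.3), *Cabp5* (65.3) and *Thy1* (51.9). The lowest levels were those of the horizontal cell factors *Onecut1* (0.345 CPM per kb) and *Onecut2* (0.508) and of *Th* (0.848), which marks the sparse dopaminergic amacrine cells. The labelled tissue therefore carried the defining markers of all 4 classes.

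None of the 35 markers was called, where 1.99% of all genes tested were called (375 of 18859, 1.08% higher and 0.912% lower). At an adjusted *p* under 0.05 without a fold limit there were 3, the bipolar cell genes *Prkca* and *Cabp5*, which were lower, and *Scgn*, which was higher, where 5.79% of all genes passed (3.31% higher and 2.47% lower). At an unadjusted *p* under 0.05 there were 5 markers, *Pcp2* and *Pou4f2* being the others, where 21.7% of all genes passed. Also with edgeR's quasi-likelihood test and with DESeq2, 0 markers were called, where 288 and 362 of all 18859 genes were. An adjusted *p* under 0.05 was reached by 2 and 3 markers, where 799 and 1181 of all genes passed. The groups of libraries did not overlap for 2 markers, *Prkca* and *Scgn*, where 5.94% of all genes did not overlap. The direction was higher for 19 markers and lower for 16, the median log2FC was 0.01, against 0.00 over all genes tested, and the markers ranged from -0.21 for *Pou4f2* to 0.20 for *Scgn*.

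The 95% limits of the log2FC lay within -0.5 and 0.5 for 34 of the 35 markers. At this depth and number of libraries, a change as large as the fold limit in whole-retina RNA thus lay outside the limits for each of them. A change of that size confined to the transduced part of the retina would be diluted in the whole, could lie within the limits and was not tested. Limits within -0.5 and 0.5 were found for 65.6% of all genes tested, and for 12298 of the 15729 genes whose level was above that of the lowest marker. These shares were not matched in precision, since the median standard error was 0.061 for the markers and 0.078 for those 15729 genes. The exception was *Onecut1*, the marker with the fewest counts, with limits of -0.68 to 0.31. For the other 34 markers the widest limits were -0.38 for *Lrit3* and 0.39 for *Chat*. By class, the median log2FC was 0.02 for bipolar, 0.02 for amacrine, 0.04 for horizontal and -0.02 for ganglion cell markers. The plot of fold changes by marker shows these limits.

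**Figure D1:**
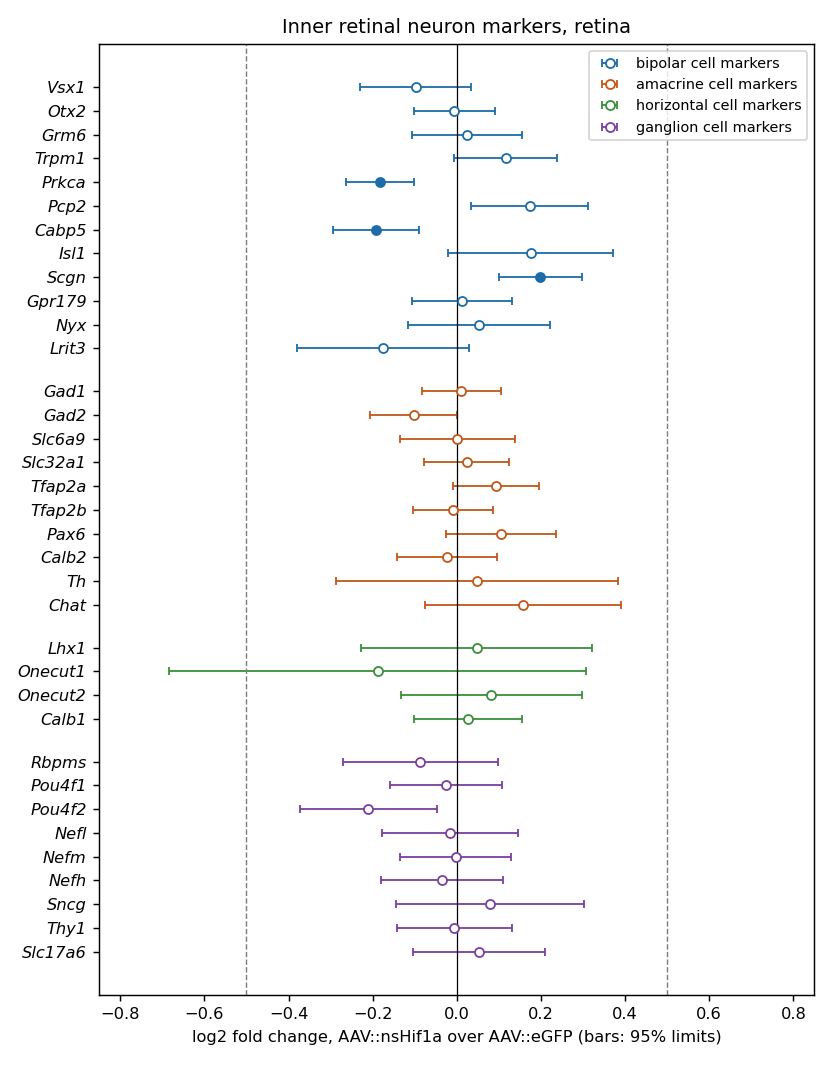
Log2 fold change of AAV::*nsHif1a* over AAV::eGFP (x axis) for the 35 markers grouped by cell class, with bars for the 95% limits from limma (n = 5 per group). Filled points have an adjusted *p* under 0.05 (*Prkca*, *Cabp5* and *Scgn*), dashed lines mark -0.5 and 0.5, and only the bar of *Onecut1* crosses a dashed line.

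Among the bipolar cell markers 7 were higher and 5 lower. *Prkca* encodes protein kinase C alpha, the classical marker of rod bipolar cells, and lies at chr11:107824212-108235099, minus strand, in GRCm39. Its level was 337, 315, 343, 345 and 325 CPM in AAV::eGFP libraries 1 to 5 and 303, 284, 289, 308 and 290.5 CPM in AAV::*nsHif1a* libraries 1 to 5. Every AAV::*nsHif1a* library was below every AAV::eGFP library. The means were 333 ± 12.7 and 295 ± 9.96 CPM (SD, n = 5), a log2FC of -0.18 (95% limits -0.26 to -0.10, BH-adjusted *p* = 0.015 in limma).

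*Cabp5*, a calcium-binding protein of rod bipolar cells and some cone bipolar types, lies at chr7:13132057-13142812, plus strand. It had 170.0, 154, 174, 157 and 170.1 CPM in the AAV::eGFP libraries and 150.3, 139, 140.1, 146 and 158 CPM in the AAV::*nsHif1a* libraries. The means of 165 ± 9.08 and 147 ± 7.78 CPM (SD, n = 5) gave a log2FC of -0.19 (95% limits -0.30 to -0.09, BH-adjusted *p* = 0.032 in limma). Here the groups overlapped, since AAV::*nsHif1a* library 5 was above AAV::eGFP libraries 2 and 4.

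*Scgn* encodes secretagogin, a calcium sensor of cone bipolar cells, and lies at chr13:24137420-24175197, minus strand. Its level was 68.4, 66.02, 69.9, 63.6 and 69.03 CPM with AAV::eGFP and 73.03, 80.2, 78.7, 79.6 and 71.1 CPM with AAV::*nsHif1a*. Every AAV::*nsHif1a* library was above every AAV::eGFP library, with means of 67.4 ± 2.56 and 76.6 ± 4.17 CPM (SD, n = 5) and a log2FC of 0.20 (95% limits 0.10 to 0.30, BH-adjusted *p* = 0.025 in limma). The 3 genes that passed the adjusted threshold thus belong to the same class but differed in direction.

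The sequences upstream of these 3 genes are shown because they carried the only adjusted *p* values under 0.05. Each is read 5′ to 3′ on the strand of the gene from the GRCm39 genome, covers the part of the 250 bases before the annotated start that lies outside the gene, and has in capitals the matches to the core of the HIF response element (ACGTG or GCGTG, either strand) or to TAATCC, the core bound by OTX2 and CRX (either strand). They lie at chr11:108235100-108235310 on the minus strand (211 bases), chr7:13131807-13132056 on the plus strand and chr13:24175198-24175447 on the minus strand.
Prkca: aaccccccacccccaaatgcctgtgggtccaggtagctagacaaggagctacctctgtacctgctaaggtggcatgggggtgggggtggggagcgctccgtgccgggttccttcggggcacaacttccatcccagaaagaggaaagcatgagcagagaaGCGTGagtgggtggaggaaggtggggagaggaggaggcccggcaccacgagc
Cabp5: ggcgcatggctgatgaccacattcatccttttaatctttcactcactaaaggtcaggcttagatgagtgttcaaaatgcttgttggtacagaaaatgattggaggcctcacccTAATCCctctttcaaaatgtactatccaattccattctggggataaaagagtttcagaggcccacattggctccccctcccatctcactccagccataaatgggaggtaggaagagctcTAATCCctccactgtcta
Scgn: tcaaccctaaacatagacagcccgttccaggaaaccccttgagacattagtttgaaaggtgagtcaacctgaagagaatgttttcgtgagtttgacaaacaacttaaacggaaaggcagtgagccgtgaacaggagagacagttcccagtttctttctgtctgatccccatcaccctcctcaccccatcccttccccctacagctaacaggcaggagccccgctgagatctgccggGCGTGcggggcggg
The windows of *Prkca* and *Scgn* each held 1 match to GCGTG, and that of *Cabp5* held 2 to TAATCC. Either HIF core was present in the 250-base windows of 14 of the 35 markers (40%), against 41.3% of 21757 protein-coding genes and 5 of the 8 HIF targets of the list (62.5%). For ACGTG alone the shares were 20% of the markers and 17% of protein-coding genes, and for GCGTG alone 22.9% and 31.2%. TAATCC was present for 2 markers (5.71%), *Cabp5* and *Isl1*, against 7% of protein-coding genes and 11 of 25 rod genes (44.0%). A match is a run of letters in the window and was not measured as a bound site.

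The receptor complex at the tips of ON bipolar dendrites is represented by 5 markers, none of which passed the adjusted threshold. *Grm6*, the glutamate receptor that senses the release of the photoreceptors, had 169.6, 167, 180.2, 180.0 and 188 CPM with AAV::eGFP and 196, 185, 181, 186 and 149 CPM with AAV::*nsHif1a* (log2FC 0.02, 95% limits -0.11 to 0.15). AAV::*nsHif1a* library 5 was the lowest of the 10 and the others overlapped. *Trpm1*, the cation channel that the receptor keeps shut, had 333, 327, 323, 299 and 301 CPM and 350.3, 326, 353, 381 and 299 CPM in the same order (log2FC 0.12, 95% limits -0.01 to 0.24, BH-adjusted *p* = 0.25 in limma), again with overlapping groups.

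*Gpr179*, which anchors the regulators of the cascade at the dendritic tip, had means of 230.1 ± 10.4 and 232 ± 21.9 CPM (SD, n = 5), a log2FC of 0.01 (95% limits -0.11 to 0.13). *Nyx*, the leucine-rich repeat protein nyctalopin that is needed to place the channel, had 28.2 ± 2.24 and 28.4 ± 3.001 CPM (log2FC 0.05, 95% limits -0.12 to 0.22). *Lrit3*, a related protein that is known to be made by photoreceptors and to act across the synapse, had 43.6, 39.4, 54.1, 55.04 and 49.99 CPM with AAV::eGFP and 44.9, 45.2, 38.1, 39.95 and 48.6 CPM with AAV::*nsHif1a*. Its log2FC was -0.18 (95% limits -0.38 to 0.03, BH-adjusted *p* = 0.30 in limma), and the AAV::*nsHif1a* values lay within the range set by AAV::eGFP libraries 2 and 4 except for library 3.

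*Pcp2*, a modulator of G-protein signalling in rod bipolar and other ON bipolar cells, had 126, 116, 109, 107 and 107 CPM with AAV::eGFP and 145, 127, 125, 125 and 109.7 CPM with AAV::*nsHif1a*. The log2FC was 0.17 (95% limits 0.03 to 0.31, BH-adjusted *p* = 0.14 in limma), and the groups overlapped through AAV::eGFP library 1 and AAV::*nsHif1a* library 5.

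The 3 transcription factors of the class were spread on both sides of 0. *Isl1*, which acts in ON bipolar cells and also in cholinergic amacrine and ganglion cells, ranged from 55.0 to 82.1 CPM with AAV::eGFP and from 74.5 to 82.9 CPM with AAV::*nsHif1a* (log2FC 0.18, 95% limits -0.02 to 0.37). *Vsx1*, a homeodomain factor of cone bipolar cells, had 43.1 ± 2.26 and 40.2 ± 3.76 CPM (log2FC -0.10, 95% limits -0.23 to 0.03). *Otx2*, which bipolar cells share with photoreceptors, had 164 ± 3.63 and 166 ± 11.4 CPM (log2FC -0.01, 95% limits -0.10 to 0.09). The plot of levels per library shows the 4 markers with the smallest *p* values in the upper row and 1 marker of each class in the lower row.

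**Figure D2:**
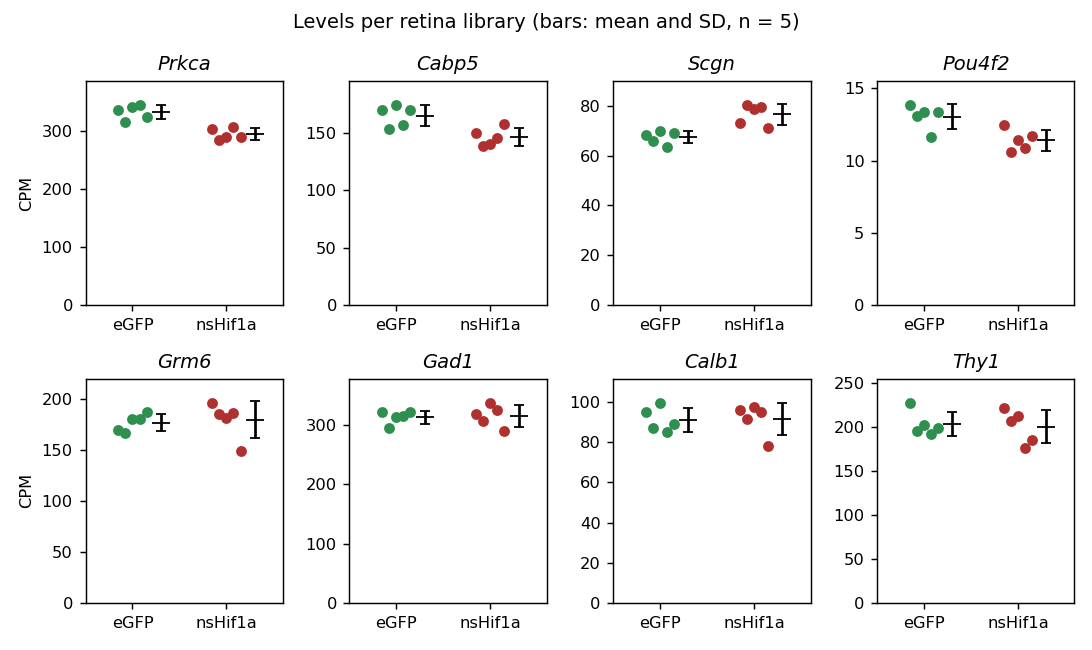
Level in CPM (y axis, from 0) of 8 markers in each retinal library, with 5 AAV::eGFP libraries in green and 5 AAV::*nsHif1a* libraries in red, and black bars for the mean and SD. The groups are apart for *Prkca* (lower with AAV::*nsHif1a*) and *Scgn* (higher) and overlap for *Cabp5*, *Pou4f2*, *Grm6*, *Gad1*, *Calb1* and *Thy1*.

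Among the amacrine cell markers 7 were higher and 3 lower, and 0 of 10 had an unadjusted *p* under 0.05 in limma. For inhibition by GABA, *Gad1*, the larger of the GABA-synthesising glutamate decarboxylases, had 322, 295, 313, 315 and 322 CPM with AAV::eGFP and 319, 306, 338, 325 and 290.5 CPM with AAV::*nsHif1a* (log2FC 0.01, 95% limits -0.08 to 0.10). *Gad2*, which encodes the other decarboxylase, had 75.2, 67.1, 78.5, 75.8 and 72.9 CPM and 70.9, 67.9, 65.5, 73.4 and 69.3 CPM (log2FC -0.10, 95% limits -0.21 to 0.00, BH-adjusted *p* = 0.24 in limma). The groups overlapped for both genes.

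*Slc32a1*, the transporter that loads GABA and glycine into synaptic vesicles, had 101 ± 3.88 and 102 ± 6.79 CPM (SD, n = 5; log2FC 0.02, 95% limits -0.08 to 0.12). *Slc6a9*, the glycine transporter GlyT1 of glycinergic amacrine cells, lies at chr4:117691703-117732395, plus strand, and had 235, 224, 193, 199 and 198 CPM with AAV::eGFP and 234, 213, 195, 197 and 210.0 CPM with AAV::*nsHif1a*. Its log2FC was 0.00 (95% limits -0.14 to 0.14), and the ranges of the groups nearly coincided.

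The transcription factors *Tfap2a* and *Tfap2b*, AP-2 factors of amacrine cells, had log2FC of 0.09 (95% limits -0.01 to 0.19) and -0.01 (95% limits -0.10 to 0.09). *Pax6*, which is shared by amacrine, horizontal and ganglion cells, had 315, 317, 258, 264 and 268 CPM with AAV::eGFP and 310.3, 311, 304, 288 and 292 CPM with AAV::*nsHif1a* (log2FC 0.10, 95% limits -0.03 to 0.24). AAV::eGFP libraries 3, 4 and 5, the libraries without *Xist*, were the 3 lowest of the 10. *Calb2*, the calcium-binding protein calretinin of amacrine and ganglion cells, had 290.3 ± 13.7 and 284 ± 24.8 CPM (log2FC -0.02, 95% limits -0.14 to 0.09).

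The markers of sparse amacrine types had few counts and wider limits. *Th*, tyrosine hydroxylase of the dopaminergic cells, had 4.203, 5.81, 4.33, 5.22 and 5.95 CPM with AAV::eGFP and 6.52, 5.23, 6.03, 5.04 and 3.66 CPM with AAV::*nsHif1a* (log2FC 0.05, 95% limits -0.29 to 0.38). *Chat*, choline acetyltransferase of the starburst cells, had 14.6, 11.7, 10.7, 11.8 and 11.1 CPM and 16.5, 13.9, 11.8, 13.02 and 11.5 CPM (log2FC 0.16, 95% limits -0.08 to 0.39). The highest *Chat* value of each group was in library 1, and the groups overlapped.

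The 4 horizontal cell markers had log2FC between -0.19 and 0.08, and 0 of them had an unadjusted *p* under 0.05 in limma. *Calb1*, calbindin, which also labels some amacrine cells, was the most abundant with 95.1, 86.95, 99.6, 84.97 and 88.8 CPM with AAV::eGFP and 95.7, 91.6, 97.4, 95.04 and 78.1 CPM with AAV::*nsHif1a* (log2FC 0.03, 95% limits -0.10 to 0.16). *Lhx1*, a LIM homeodomain factor that sets the position of horizontal cells, had 5.32 ± 0.569 and 5.61 ± 0.922 CPM (log2FC 0.05, 95% limits -0.23 to 0.32). The factors *Onecut1* and *Onecut2*, which specify the class, had log2FC of -0.19 (95% limits -0.68 to 0.31) and 0.08 (95% limits -0.13 to 0.30). With 18 to 43 counts of *Onecut1* per library, a change of this size was not detectable at this depth.

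Of the 9 ganglion cell markers 2 were higher and 7 lower. *Pou4f2*, the factor BRN3B of ganglion cells, lies at chr8:79159638-79163278, minus strand, and had 13.8, 13.05, 13.4, 11.6 and 13.3 CPM with AAV::eGFP and 12.4, 10.6, 11.4, 10.8 and 11.7 CPM with AAV::*nsHif1a*. The means of 13.04 ± 0.838 and 11.4 ± 0.734 CPM (SD, n = 5) gave the lowest log2FC of the 35, -0.21 (95% limits -0.37 to -0.05, BH-adjusted *p* = 0.12 in limma), and the groups overlapped at AAV::eGFP library 4. *Pou4f1*, the related factor BRN3A, had a log2FC of -0.03 (95% limits -0.16 to 0.11), and *Rbpms*, an RNA-binding protein found in nearly all ganglion cells, -0.09 (95% limits -0.27 to 0.10).

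The neurofilament genes, whose products form the cytoskeleton of the axon, had log2FC close to 0. *Nefl* had 425, 390.2, 468, 407 and 404 CPM with AAV::eGFP and 414, 394, 482, 349.9 and 397 CPM with AAV::*nsHif1a* (log2FC -0.02, 95% limits -0.18 to 0.15). *Nefm* and *Nefh* had log2FC of 0.00 (95% limits -0.14 to 0.13) and -0.03 (95% limits -0.18 to 0.11). The annotated span of *Nefm* overlaps *Nefl* on the opposite strand, and the counting kept the strands apart.

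*Thy1*, a surface glycoprotein, had 204 ± 14.02 and 201 ± 19.1 CPM (SD, n = 5; log2FC -0.01, 95% limits -0.14 to 0.13). *Sncg*, gamma-synuclein, had 90.3 ± 11.3 and 91.7 ± 12.8 CPM (log2FC 0.08, 95% limits -0.14 to 0.30). *Slc17a6*, the vesicular glutamate transporter VGLUT2 of ganglion cells, had 73.7 ± 6.54 and 74.3 ± 7.33 CPM (log2FC 0.05, 95% limits -0.10 to 0.21). All 3 had overlapping groups.

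Within the groups, single libraries were low or high for many markers, as the map of deviations shows. AAV::*nsHif1a* library 5 was the lowest of the 10 for 9 markers and the highest for 0, and AAV::*nsHif1a* library 4 was the lowest for 8 and the highest for 4. In contrast, AAV::*nsHif1a* library 1 was the highest for 10 markers and the lowest for 1. The fit gave library 5 the smallest weight of the 10 (0.665). It also had the lowest summed level of rod genes (52640 CPM), while library 4 had the highest summed level of lens genes (26608 CPM). Whether these levels account for the marker values of the same libraries was not tested. Averaged over the 9 ganglion cell markers, log2 CPM was 6.27 ± 0.06 with AAV::eGFP and 6.22 ± 0.11 with AAV::*nsHif1a* (SD, n = 5), and for the 12 bipolar cell markers 6.80 ± 0.04 and 6.80 ± 0.06.

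**Figure D3:**
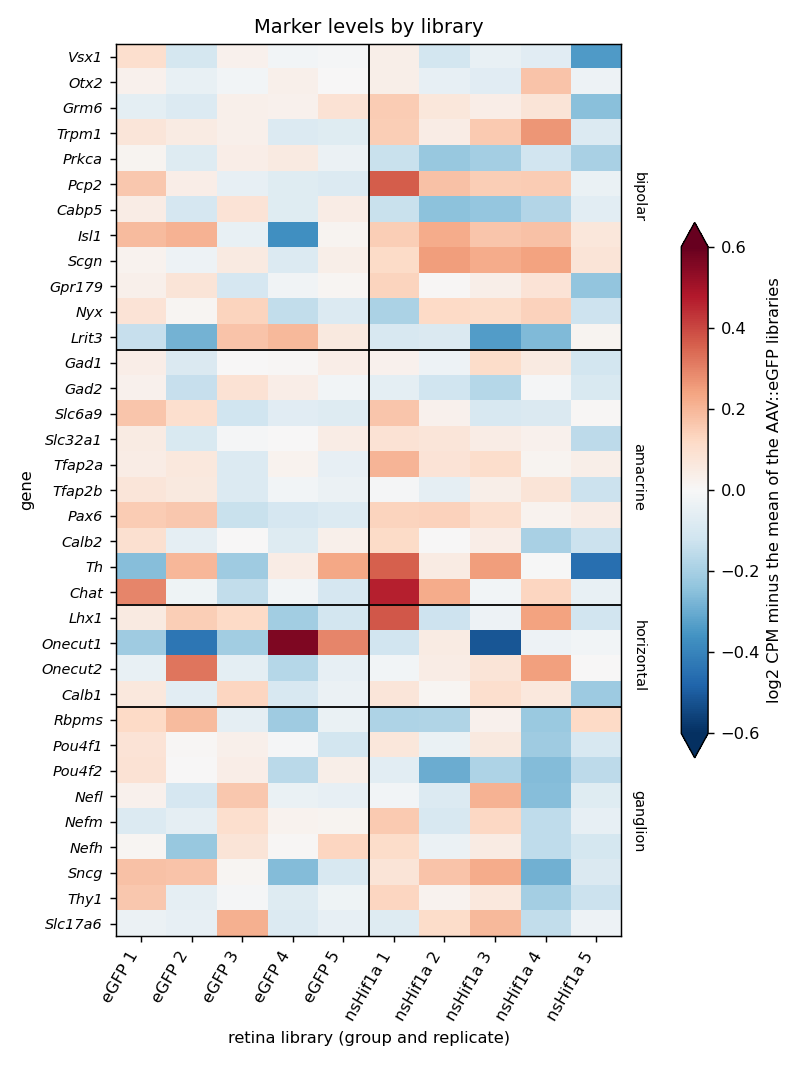
Level of the 35 markers (rows, grouped by class) in the 10 retinal libraries (columns) as log2 CPM minus the mean of the 5 AAV::eGFP libraries, red for higher and blue for lower. *Prkca* is blue and *Scgn* red in all 5 AAV::*nsHif1a* libraries, and library 5 of that group is blue for 27 of the 35 markers.

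The unequal sex of the groups was examined with the 7 libraries that held *Xist* counts, 2 with AAV::eGFP and 5 with AAV::*nsHif1a*. In these, 0 of the 35 markers had an adjusted *p* under 0.05 in limma, where only 239 of all 19926 genes tested passed. At an unadjusted *p* under 0.05 there were 5 (the 3 genes above, *Pou4f2* and *Rbpms*). The share of all genes in these 7 libraries was not taken, so nothing is read from this count. Over all 10 libraries that share was 21.7%. The median log2FC was 0.00, and the markers ranged from -0.25 to 0.21. *Prkca*, *Cabp5* and *Scgn* had log2FC of -0.15, -0.16 and 0.21 there (BH-adjusted *p* = 0.18, 0.25 and 0.14 in limma). *Pcp2* went from 0.17 to 0.07, *Lrit3* from -0.18 to 0.05 and *Isl1* from 0.18 to -0.03. The sign differed from that over all libraries for 14 markers, none of which had passed the adjusted threshold. Only 2 AAV::eGFP libraries remained in this comparison.

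Over all 10 libraries, all 25 genes of a list of rod genes had a lower log2FC, with a median of -0.17 and a range of -0.38 for *Reep6* to 0.00 for *Rcvrn*. Of these, 8 had an adjusted *p* under 0.05 in limma, where 2.47% of all genes passed in the lower direction, and none reached the fold limit. All 8 lost it in the 7 libraries with *Xist*, where the rod median was -0.14 and 0 rod genes passed (8 at an unadjusted *p* under 0.05), and with the presence of *Xist* as a covariate (0, and 10 unadjusted). Of all genes, 239 of 19926 passed in those libraries and 434 of 18859 with the covariate. The count of rod genes was also 0 with edgeR's quasi-likelihood test (13 unadjusted) and 1 with the replicate number as a block, against 10 with DESeq2. Of all 18859 genes, 799, 439 and 1181 passed in these fits. The share of all genes at an unadjusted *p* under 0.05 is not given for the alternative fits, so the unadjusted counts have no background. The summed level of rod genes was 65654 to 72810.5 CPM with AAV::eGFP and 52640 to 68554 CPM with AAV::*nsHif1a*. The summed levels of the marker classes overlapped throughout, with 1724 to 1807 against 1615 to 1845 CPM for bipolar, 1465 to 1620 against 1447 to 1615 CPM for amacrine, 99.6 to 115 against 93.1 to 113 CPM for horizontal and 1043 to 1163 against 934 to 1202 CPM for ganglion cell markers. The difference between rod genes and markers was not tested, since the markers were chosen with earlier results known.

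Further genes of the same neurons were taken from 6 lists of 73 genes, of which 72 were tested. Of these, 37 were higher and 35 lower, with a median log2FC of 0.00, and 3 had an adjusted *p* under 0.05, where 5.79% of all genes passed. *Gnb3*, a G-protein beta subunit that ON bipolar cells share with cones, was the only one called, where 1.99% of all genes were called. It had 407, 428, 369, 396 and 385 CPM with AAV::eGFP and 477, 648, 505, 573 and 641 CPM with AAV::*nsHif1a*. Its groups were apart, and the log2FC was 0.52 (95% limits 0.34 to 0.70, BH-adjusted *p* = 0.0033 in limma). The remaining 5 genes of the ON bipolar cascade list had log2FC between -0.14 and 0.14. Of 11 cone genes, 6 were higher and 5 lower, with a median log2FC of 0.06. Among them 1 passed the adjusted threshold, in the lower direction, where 2.47% of all genes did. The cell type that carried the change of *Gnb3* was not tested. *Cck*, a peptide of amacrine cells that was named after its values were seen, also passed (log2FC 0.30, BH-adjusted *p* = 0.045 in limma), and its groups were apart.

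The receptors through which bipolar and ganglion cells receive inhibition, 13 subunits of GABA and glycine receptors that are part of these 72 genes, had a median log2FC of 0.08, with 9 higher, 4 lower and 0 at an adjusted *p* under 0.05 in limma (1 at an unadjusted *p* under 0.05). On the photoreceptor side of the synapse, 4 of 10 genes had an adjusted *p* under 0.05, where 5.79% of all genes passed, and none reached the fold limit. These 4 were likewise named after their values were seen. *Elfn1* and *Lrit1*, adhesion proteins of the rod and cone terminals, were higher (log2FC 0.17 and 0.16), and *Cacna1f*, the calcium channel of the ribbon, and *Unc119* were lower (-0.36 and -0.21). Among 11 genes of axon injury and stress, 10 were tested and 2 were called higher, where 1.08% of all genes were called higher. These were the stress factor *Atf3* (4.77 ± 1.06 against 15.8 ± 6.11 CPM, SD, n = 5; log2FC 1.69) and *Chac1* (log2FC 1.03), and the cell type that carried them was not measured in whole retina.

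**Figure D4:**
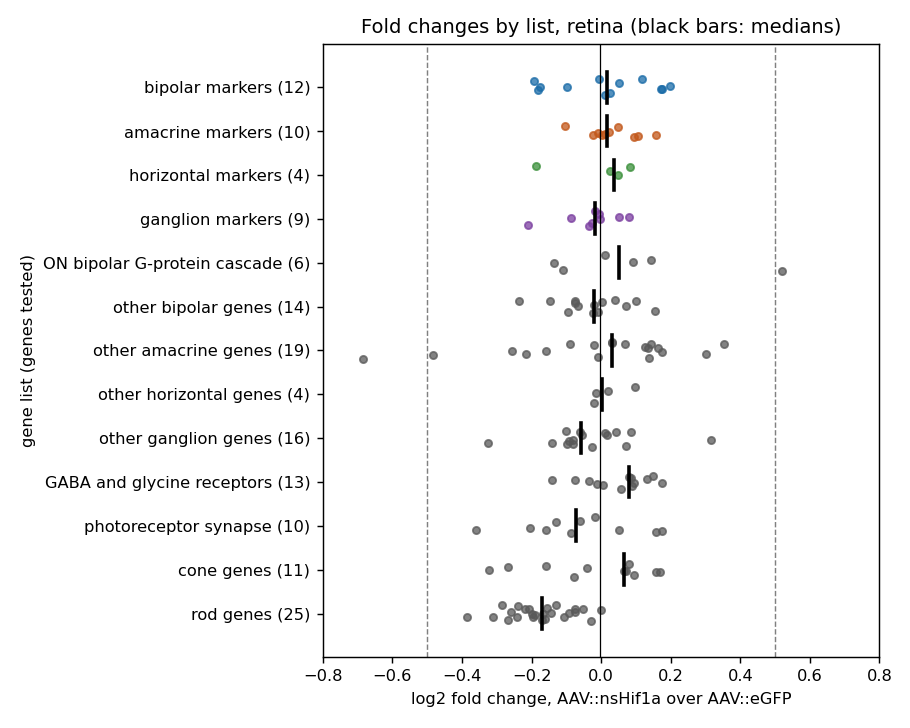
Log2 fold change of AAV::*nsHif1a* over AAV::eGFP (x axis) for each gene tested of 13 lists (rows, number of genes tested in parentheses), with black bars for the medians and dashed lines at -0.5 and 0.5. The medians of the 4 marker classes lie between -0.02 and 0.04, that of the rod genes at -0.17, and *Gnb3* is the only point right of 0.5.

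In 661W cells, where *Hif1a* had 157 ± 6.79 CPM with eGFP and 1561 ± 384 CPM with *nsHif1a* (SD, n = 4), most of the markers had few or no counts. There were 13424326 to 17809585 counts per library, 11 of the 35 markers had 0 counts in all 8 libraries, and 16 others had at most 16 counts in a library and did not pass the filter. A count of 0 allows up to 0.168 to 0.223 CPM, depending on the library. The 8 that could be tested were *Otx2*, *Prkca*, *Slc6a9*, *Pax6*, *Onecut2*, *Rbpms*, *Pou4f1* and *Sncg*. Of these 1 was called, in the higher direction, where 1.27% of the 15962 genes tested in the cells were called (1.21% higher).

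*Slc6a9* had 35.4, 33.3, 38.1 and 40.8 CPM in eGFP libraries 1 to 4 and 84.2, 85.4, 51.2 and 59.01 CPM in *nsHif1a* libraries 1 to 4. Every *nsHif1a* library was above every eGFP library, as for 13.6% of all genes in either direction, and *nsHif1a* libraries 1 and 2 were above 3 and 4. The means were 36.9 ± 3.26 and 69.96 ± 17.4 CPM (SD, n = 4), a log2FC of 0.91 (95% limits 0.57 to 1.26, BH-adjusted *p* = 0.021 in limma). When replicates of the same number were treated as pairs, since their deviations correlated in all 4 pairs, the log2FC was 0.86 and the adjusted *p* 0.063 from limma, so the call was lost. However, only 2 of the 4 numbers resembled their own number best, while number 1 best matched number 2 and the reverse. It was also lost without eGFP library 1 (log2FC 0.85, adjusted *p* = 0.066 from limma) and without eGFP library 2 (0.84, adjusted *p* = 0.063).

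The cell libraries fell into 2 sets, libraries 1 and 2 and libraries 3 and 4, in both groups. Within a set the variance between libraries of a group was 1.83 to 2.07 times that of sampling noise (chi-square per degree of freedom). Between the sets it was 7.65 to 37.2 times, and no source states that the 4 libraries are separate cultures. *Hif1a* with *nsHif1a* was at 1222, 1241, 1954 and 1825 CPM in libraries 1 to 4. The log2FC of *Slc6a9* was 1.30 in libraries 1 and 2 and 0.49 in libraries 3 and 4, above 0 in both sets and smaller in the set with more *Hif1a* RNA. With the sets as a block it was 0.91 (adjusted *p* = 0.0059 from limma). With the counts of each set summed, which leaves 2 samples per group, it was 0.89 and did not pass (adjusted *p* = 0.88 from limma), and neither did *Hif1a* itself (log2FC 3.28, adjusted *p* = 0.27).

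The log2FC of *Slc6a9* was compared between the experiments. In one model over all 18 libraries, added after the data were seen, the difference of the 2 log2FC, retina minus cells, was -0.84 (SE 0.16, BH-adjusted *p* = 0.011 for the interaction in limma), where 2.33% of 20999 genes passed. With the pairs of the cells in the same model it was -0.89 (adjusted *p* = 0.011 from limma), and with the sets as a block -0.91 (adjusted *p* = 0.0027). With the counts of each set summed the difference was -0.89 and did not pass (adjusted *p* = 0.11 from limma). The retina and the cells also differ in the promoter, the time of exposure and the share of cells that carry the transgene, and these cannot be told apart. *Prkca*, which was lower in the retina, had a log2FC of 0.04 in the cells (95% limits -0.09 to 0.16), and the difference of -0.21 did not pass (adjusted *p* = 0.11 from limma) but passed with the sets as a block (-0.22, adjusted *p* = 0.029).

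The other 6 markers tested in the cells had log2FC from -0.46 for *Pou4f1* to 0.15 for *Pax6* over all 8 libraries, and none passed the adjusted threshold. Some of these values average sets that differed. *Pax6* had 0.35 in libraries 1 and 2 and -0.04 in libraries 3 and 4 (adjusted *p* = 0.0050 and 0.86 from limma, 2 libraries per group). In the same order *Pou4f1* had 0.03 and -1.06, and *Rbpms* -0.52 and 0.50. *Otx2* had 26.9 ± 3.04 and 28.1 ± 4.72 CPM (SD, n = 4), and *Pax6* 23.6 ± 1.01 and 26.4 ± 4.91 CPM. *Pou4f1*, *Rbpms* and *Sncg* stayed below 3 CPM, and their 95% limits reached beyond -0.5, so a decrease of that size was not detectable in these libraries.

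**Figure D5:**
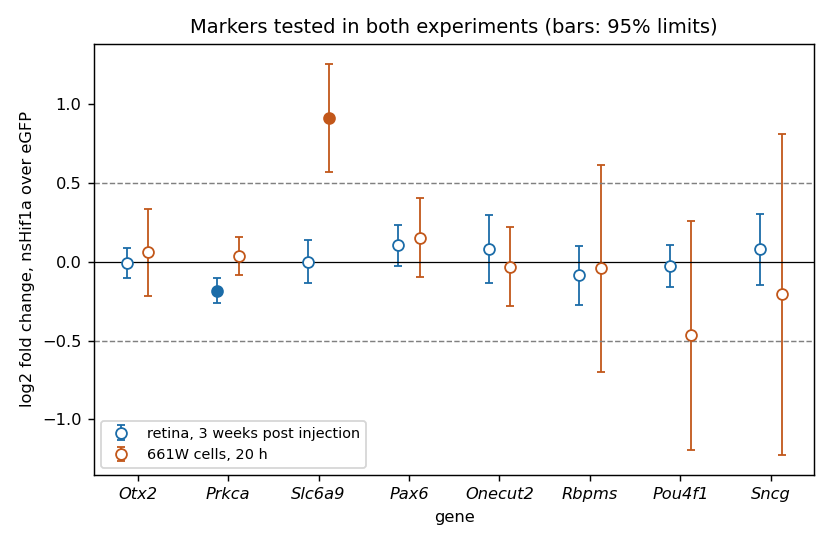
Log2 fold change of *nsHif1a* over eGFP (y axis) for the 8 markers tested in both experiments, with blue for the retina at 3 wpi (n = 5 per group), orange for 661W cells at 20 h (n = 4 per group) and bars for the 95% limits. Filled points have an adjusted *p* under 0.05, and *Slc6a9* is at 0.91 in the cells and 0.00 in the retina.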

How the data were processed

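Per the labels and the methods of the study, stranded mRNA libraries of the retina (5 per group) and of 661W cells (4 per group) were aligned by the authors to GRCm39 and counted per gene with featureCounts on the antisense strand. The authors deposited unfiltered, unnormalized counts per gene, 1 table per experiment. From these counts, genes with low values were dropped by filterByExpr (minimum count 10), libraries were scaled by TMM in edgeR 4.0.16, and voomWithQualityWeights values were fitted in limma 3.58.1 under R 4.3.3, for each experiment alone. The functions and the thresholds of a call follow the methods of the study, while the minimum count is the default of the function, and the procedure was tested on simulated data. The 95% limits come from the moderated statistic, with a prior count of 2 for log2 CPM. The depth was 12898220 to 17809585 counts per library. The variance between replicates of the retina was 5.54 to 64.1 times that of sampling noise (chi-square per degree of freedom). In the cells, the ratio was 1.83 to 2.07 for libraries 1 and 2 and libraries 3 and 4 of a group, and 7.65 to 37.2 for libraries of different sets. Each library counted as 1 sample, but nothing states that the cell libraries come from separate cultures, so *p*-values there measure only the spread between libraries, and the sets were also summed or used as a block.

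Named genes were all 35 markers, up to 3 called genes with the largest absolute log2FC of each other list, *Hif1a*, *Xist* and the Y-linked genes. The markers and lists were chosen with earlier results of these data known, so no test over a list was made. One gene of the lists that passed the adjusted threshold is not reported here. The replicate numbers come from the labels. Deviations from the group means correlated between same-numbered libraries with r of 0.227 to 0.269 across genes in all 4 pairs of the cells, so the block is given beside that result, and with r of -0.148 to 0.138 in the retina. In the cells, 2 of the 4 numbers resembled their own number best. As alternatives, DESeq2 1.42.0, edgeR's quasi-likelihood test, other scalings and filters, no sample weights, *Xist* and lens covariates, the block and the omission of each library were used. The interaction model and the sets of the cells were added after the data were seen. Coordinates follow gencode M39 (GRCm39), in which 78168 of the 78239 gene identifiers were found without their version. The authors counted with an earlier release. Every column of the tables belonged to a sample of the series.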

Additional observations from a re-analysis of the deposited data

Results flagged for a closer look

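The effect of *nsHif1a* on *Slc6a9*, the glycine transporter, differed between the experiments by a log2 difference of -0.84, retina minus 661W cells, in limma's interaction term over 18 libraries, but did not pass with the cell counts summed over libraries 1-2 and 3-4 (adjusted *p* = 0.11 from limma). In 5 of 70 groups of retinal libraries, 1 for each marker and treatment, the highest or lowest library stood apart from the other 4 by Dixon's test. These were *Slc32a1* in AAV::*nsHif1a* library 5 (90.6 CPM, the others 103 to 107), *Chat* in AAV::eGFP library 1 (14.6 CPM, the others 10.7 to 11.8), *Onecut2* in AAV::eGFP library 2 (10.3 CPM, the others 7.27 to 7.95), *Thy1* in AAV::eGFP library 1 (228 CPM, the others 193 to 203) and *Slc17a6* in AAV::eGFP library 3 (85.3 CPM, the others 69.4 to 71.8). In the cells this held for 2 of 16 groups, *Pou4f1* in *nsHif1a* library 3 (0.526 CPM, the others 1.52 to 1.66) and *Sncg* in eGFP library 2 (0.259 CPM, the others 0.601 to 0.661). Chance gives about 1 such group in 20.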

How the results depend on the processing

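In all 23 other fits of the retina, 0 of the 35 markers were called, and 3 passed when the fold limit was dropped. The median log2FC of the markers was -0.01 to 0.03 when each library was left out in turn and -0.02 to 0.02 in the other 13 fits, and the limits lay within -0.5 and 0.5 for 33 to 35 markers. An adjusted *p* under 0.05 was kept by *Prkca* in 20 of the 23 fits (lost with the *Xist* covariate, in the libraries with *Xist* alone and without AAV::*nsHif1a* library 2, adjusted *p* = 0.12, 0.18 and 0.054 from limma), by *Scgn* in 12 and by *Cabp5* in 9, each with the same sign throughout. The number of such markers was 0 to 3, and 0 with the *Xist* covariate, in the libraries with *Xist* alone and without AAV::*nsHif1a* library 2. In that order, 434 of 18859, 239 of 19926 and 627 of 19112 genes passed there. With the level of gamma-crystallin genes of the lens as a covariate, 1 marker passed, where 559 of 18859 genes did. This was *Prkca* (log2FC -0.22, adjusted *p* = 0.029 from limma). *Cabp5* and *Scgn* had log2FC of -0.17 and 0.22 in that fit (adjusted *p* = 0.20 and 0.086 from limma). Over all genes, the count of calls was 140 to 393 in the 13 fits and 219 to 528 with a library left out (528 without AAV::eGFP library 2), against 375. With library totals in place of TMM, 16 markers were higher instead of 19, as the median of all genes moved to -0.03. With a replicate block in the retina, 0 markers were called, 1 had an adjusted *p* under 0.05, the median was 0.00 and 200 genes were called, but the libraries shared only a number, and 1 of 5 resembled its own number best. In the cells, the count of 1 called marker, *Slc6a9*, became 0 with the block and 0 with counts summed over libraries 1-2 and 3-4 (chosen after the data were seen), and was 0 to 1 with a library left out. *Pax6* in the cells passed without *nsHif1a* library 3 or 4 (log2FC 0.32, adjusted *p* = 0.029 from limma in both). The log2FC of markers that had not passed the adjusted threshold changed sign 49 times over the 13 fits and 48 times with a library left out in the retina, and 4 and 17 times in the cells. Depth limited *Onecut1* most, with 18 to 43 counts per library.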
